A study of Homo sapiens with 4 samples.

Results

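Solute carrier genes encode the membrane proteins that move amino acids, sugars, metals, nucleotides, lipids and ions into cells and between compartments. They were taken from the TT-seq gene table by symbol, as every row named SLC followed by a family number, one or more letters and a member number, with hyphenated names left out. The rule found 162 genes among 10147 listed, in 42 families. Of these, 31 belonged to SLC25, the mitochondrial carrier family, and 131 to the other families. RefSeq lists 160 of the 162 as protein coding and the remaining 2, SLC7A5P2 and SLC35E2, as transcribed pseudogenes. The rule also took 5 symbols that name no carrier: SLC4A1AP, SLC9A3R2, SLC7A6OS, SLC2A4RG and SLC7A5P2. The remaining 157 were counted as carriers or close relatives of carriers.

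In TT-seq, cells take up 4-thiouridine (4sU) briefly and the labelled RNA is purified and sequenced, which reads RNA synthesis rather than the standing RNA pool. The cells were K562, a human chronic myelogenous leukemia line, edited so that the elongation factor IWS1 carries an N-terminal dTAG, a degradation tag. Both groups carry the tag. The dIWS1 group (2 libraries) received 500 nM of the ligand dTAG7 in DMSO and the control group (2 libraries) the solvent alone, each for 1 h, before 5 min with 500 µM 4sU. How many edited clones the cultures came from is not given in the sources used here.

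The deposited table gave, for each gene, the mean of spike-in scaled counts over 4 library columns, and the reads behind that mean could be recovered from its decimals. Only 3 distinct columns emerged. One had double weight and was taken as the control, because the deposited fold changes, which the study defines as dIWS1 over control, equal the other columns over it. The control column was therefore counted as 1 sample against 2 dIWS1 columns, and no spread between controls entered any test. These columns held 29230703, 20262705 and 20482446 reads in genes for the control, dIWS1 column 1 and dIWS1 column 2. The erythroid genes GATA1, TAL1 and KLF1 were all read, GATA1 with 1498 reads in the control column. The leukocyte gene PTPRC was read too, with 15352, and the globin gene HBA2 was not among the listed genes. These reads alone do not identify the line. The tag acts on the protein, so the gene that carries it checks no label, and IWS1 itself had 3684, 2334 and 2427 reads.

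Most solute carriers share one principle. The protein alternates between openings on either side of the membrane and so never forms a continuous pore. SLC25 proteins span the inner mitochondrial membrane and exchange nucleotides, phosphate, carboxylates, amino acids, cofactors and iron between cytosol and matrix. The other families work mainly at the plasma membrane, the lysosome, the Golgi and the endoplasmic reticulum. In erythroid cells such as K562, carriers are known for supplying the iron, glycine and amino acids that heme and globin need.

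RNA synthesis from solute carrier genes was lower in dIWS1 than in control, with a median change near that of all genes tested. With spike-in scaling, 112 of the 162 fell at an adjusted p under 0.05 (limma voom fitted over 10000 genes with at least 10 reads, Benjamini-Hochberg adjusted) and 0 rose. Across all genes tested, the test called 65.0% lower and 0.130% higher. The number of members higher at an unadjusted p under 0.05 was also 0, and limma-trend called 0 higher. Both dIWS1 columns lay below the control column for 151 members, and both above it for 2, SLC18B1 and SLC35G1. Among all genes tested, both columns lay below in 92.7%. The median log2 change of the members was -0.46 (-0.50 in column 1 and -0.40 in column 2), against -0.42 over all genes tested. In bulk samples, fewer cells and less new RNA per cell cannot be told apart.

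The direction of these calls depended on the scaling. When each column was scaled by its own total of reads in genes in place of the spike-ins, 23 members were called lower and 35 higher, and the median of all genes moved up by 0.44. All 23 of those called lower were also lower with spike-ins. The shift between the scalings is nearly the same for every gene, so this overlap was close to fixed beforehand. Relative to the median gene, 7 members were lower and 5 higher, beside 4.86% and 2.94% of all genes tested.

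**Figure D1:**
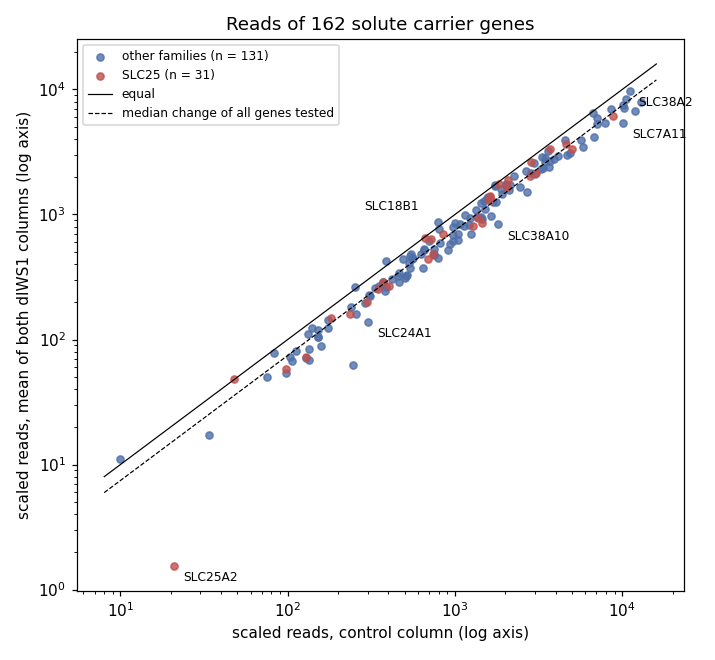
Scaled reads of each solute carrier gene in the control column (x, log axis) against the mean of both dIWS1 columns (y, log axis), with SLC25 genes in red and the other families in blue. Most points follow the dashed line of the median change of all genes tested (-0.42), and SLC24A1 and SLC38A10 lie below it.

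The mitochondrial carriers and the other families had nearly the same median. For the 31 SLC25 genes it was -0.46 (-0.49 and -0.36 in the columns), and for the 131 others -0.46 (-0.51 and -0.40). Their difference, SLC25 minus the others, was -0.01 in the fit, 0.01 in column 1 and 0.05 in column 2. It was thus slightly negative in the fit and slightly positive in each column. In SLC25, 18 of 31 (58.1%) fell, and in the other families 94 of 131 (71.8%), both to be read against 65.0% of all genes. The SLC25 genes were read at a median of 1294 reads in the control column and the others at 1011. Per kb of gene span, the median control level was 43.6 scaled reads for SLC25 and 29.0 for the others. Median gene spans were 27013 and 33074 bases.

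**Figure D2:**
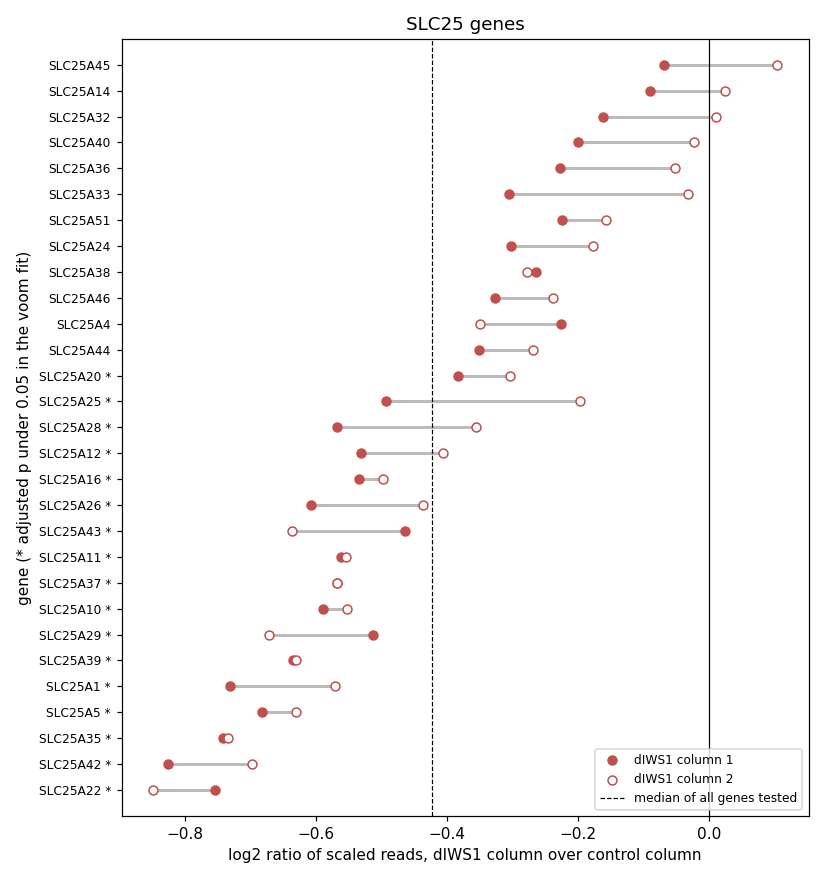
Log2 ratio of scaled reads in each dIWS1 column over the control column (x) for 29 SLC25 genes (y), with filled points for column 1 and open points for column 2. The genes run from SLC25A22 at -0.75 and -0.85 to SLC25A45 at -0.07 and 0.10, and the dashed line is the median of all genes tested, -0.42.

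The share called lower ran from 40.0% to 85.7% over the mitochondrial role lists, against 65.0% of all genes, and no list was tested against other genes. Among the energy and phosphate carriers of mitochondria, 4 of 8 genes on the list were measured and 2 fell. SLC25A5, an ADP/ATP carrier that exports ATP from the matrix, had 1294 reads in the control column, then 793 and 761 in the dIWS1 columns. Both dIWS1 columns were well below the control, at a log2 change of -0.66 ± 0.14 (SE from the fit, as for each change below, adjusted p = 1.34e-05). Its paralog SLC25A4 had 182, 153 and 130 reads, a change of -0.29 that did not pass the test. SLC25A25, an ATP-Mg/phosphate carrier, fell by 0.35 on the log2 scale, with its dIWS1 columns apart at -0.49 and -0.20. SLC25A24, of the same kind, changed by -0.24 and did not pass. SLC25A5 had the highest control level of the family, 434 scaled reads per kb, and SLC25A24 one of the lower ones, 24.4.

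Of 7 measured carriers of carboxylates and amino acids, 6 were called lower (85.7%), with a median of -0.57, and 0 were called relative to the median gene. SLC25A1, which exports citrate for lipid synthesis, had 694 reads in the control column against 411 and 425, a change of -0.65 ± 0.13. SLC25A22, a glutamate carrier, had 129 against 75 and 65, a change of -0.80 ± 0.20. Neither gene's dIWS1 columns approached the control. SLC25A10 (dicarboxylates), SLC25A11 (oxoglutarate and malate) and SLC25A29 (basic amino acids) fell by 0.57, 0.56 and 0.59. SLC25A12, the aspartate/glutamate carrier of the malate-aspartate shuttle, fell by 0.47. The exception was SLC25A44, a carrier of branched-chain amino acids, which had 2063, 1591 and 1559 reads and a change of -0.31 (adjusted p = 0.051).

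Cofactor and nucleotide carriers spread widely around a median of -0.19, with 5 of 11 called lower. The called genes were SLC25A42 and SLC25A16, linked to coenzyme A, SLC25A39, required for mitochondrial glutathione, SLC25A26 (S-adenosylmethionine) and SLC25A20 (carnitine). SLC25A42 had 1455 reads in control and 807 and 817 in dIWS1, a change of -0.76 ± 0.14. The changes of SLC25A26, SLC25A16 and SLC25A20 were -0.52, -0.52 and -0.35. At the other end stood SLC25A32, a folate and FAD carrier, with 1856, 1631 and 1702 reads and a change of -0.08. SLC25A36 and SLC25A33, both carriers of pyrimidine nucleotides, changed by -0.14 and -0.17, and SLC25A51 (NAD) by -0.19, none past the test. The columns of SLC25A33 were apart, at -0.31 and -0.03.

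The paralogs SLC25A39 and SLC25A40 stood on different sides of the median gene, at -0.21 and 0.31 relative to it. Neither was called different from the median gene. SLC25A39 had 750, 475 and 441 reads, a change of -0.63 ± 0.13, and SLC25A40 had 2864, 2452 and 2566 reads, a change of -0.11 ± 0.15. The column ratios did not overlap, at -0.64 and -0.63 for SLC25A39 and -0.20 and -0.02 for SLC25A40. The difference between these genes was not tested. SLC25A39 spans 5196 bases and SLC25A40 spans 42793.

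Heme synthesis in mitochondria relies on 3 further carriers. SLC25A37 (mitoferrin-1), the main iron importer of erythroid mitochondria, had 5044 reads in the control column and 3346 and 3097 in dIWS1, both well below, and fell by 0.57. SLC25A28 (mitoferrin-2), its broadly active relative, fell by 0.46 with 350, 232 and 249 reads. SLC25A38, which brings in glycine, had 851, 697 and 639 reads and a change of -0.27 (adjusted p = 0.058). Per kb, SLC25A37 was read at 107 in control and SLC25A28 at 7.11.

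Of the uncoupling protein relatives and carriers without a settled substrate, 2 of 5 fell. SLC25A35 and SLC25A43 changed by -0.74 and -0.55, and SLC25A46, a protein of the outer membrane, by -0.28 without passing. SLC25A14, also called UCP5, had 671, 620 and 621 reads, a change of -0.03. It was the one SLC25 gene called higher relative to the median gene (0.39, adjusted p = 0.038). SLC25A45 had 48, 45 and 47 reads, too few to separate it from either zero change or the median gene.

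SLC25A2, an ornithine carrier outside these lists, had the lowest dIWS1 values of the family, with 21 reads in control and 2 and 1 in dIWS1. At 3 reads over both columns the ratio to control was 0.0754, with an exact 95% counting interval from 0.0144 to 0.253. The interval covers counting error only. It was the one SLC25 gene called lower relative to the median gene (adjusted p = 6.91e-08). The gene spans 1415 bases of chromosome 5 (141302635 to 141304049, GRCh38, minus strand), and the nearest listed gene upstream on its strand, TAF7, ended 14441 bases before it and was read at 193 per kb against 14.7.

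**Figure D3:**
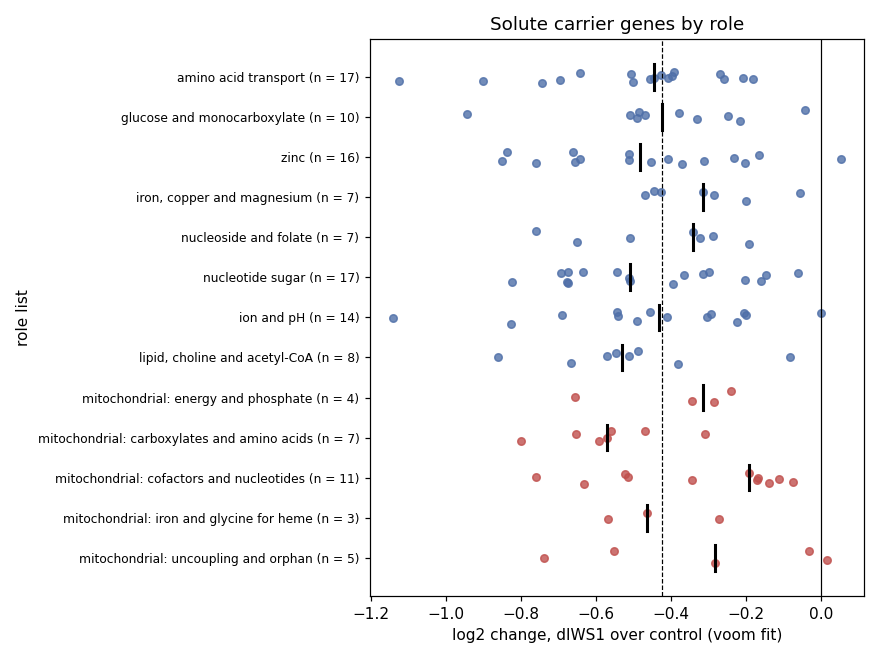
Log2 change from the voom fit (x) of the solute carrier genes on each role list (y), with a black bar at each list's median and a dashed line at the median of all genes tested. The mitochondrial lists, in red, range in median from -0.57 for carboxylates and amino acids to -0.19 for cofactors and nucleotides, and the lists of other families, in blue, from -0.53 to -0.31.

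Over the role lists of the other families the share called lower ran from 57.1% to 87.5%, again against 65.0% of all genes and without a test of any list. Of 17 amino acid carriers measured, 13 fell (76.5%). SLC38A2, a neutral amino acid carrier induced by amino acid shortage, was read at 758 per kb, the most of all members, with 11169, 9086 and 9562 reads and a change of -0.18 that did not pass. SLC7A11, the cystine/glutamate exchanger xCT, had 10185 reads in control and 5209 and 5122 in dIWS1. Both dIWS1 columns were near one another and far under the control, a change of -0.90 ± 0.15 (adjusted p = 4.47e-08). SLC3A2, the heavy chain that pairs with xCT, had 7153, 5400 and 5849 reads and a change of -0.27 (adjusted p = 0.10).

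SLC38A10 had 1834 reads in control and 833 and 759 in dIWS1, a change of -1.13 ± 0.14 that left both columns under every other carrier on its list. SLC1A5, the glutamine carrier, fell by 0.50 with 3037, 2007 and 2049 reads. SLC7A1 (arginine and lysine) fell by 0.45, SLC38A1 by 0.46 and SLC38A9, a lysosomal arginine sensor for mTORC1, by 0.41. SLC6A9 (glycine) and SLC6A6 (taurine) fell by 0.75 and 0.70. All 4 SLC6 genes fell, beside 65.0% of all genes tested, SLC6A19 among them by 0.80. None of the SLC6 genes was called relative to the median gene.

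Glucose and monocarboxylate carriers had 6 of 10 called lower. SLC2A1 (GLUT1), the glucose carrier of red cells, had 10571, 7807 and 8122 reads and a change of -0.33 ± 0.15 (adjusted p = 0.041). SLC2A3 (GLUT3) had 3007, 2376 and 2529, a change of -0.21 that did not pass. SLC16A1 (MCT1), a lactate and pyruvate carrier, had 6722, 5954 and 6410 reads, close to the control in both columns (-0.15 and 0.07). SLC16A5, off the list but of the same family, had 136, 79 and 54 reads and fell by 0.97. Its columns were apart, at -0.76 and -1.19.

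Zinc carriers fell in 11 of 16 genes (68.8%), 7 of 10 in the ZIP family (SLC39) and 4 of 6 in the ZnT family (SLC30). The ZIP importers SLC39A11, SLC39A10 and SLC39A7 fell by 0.84, 0.51 and 0.37, and SLC39A8 changed by -0.31 (adjusted p = 0.055). SLC30A9 of the ZnT family fell by 0.76. SLC30A1, the exporter of the plasma membrane, had 256, 243 and 261 reads, level with the control. Its change relative to the median gene was 0.48 (adjusted p = 0.021).

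Of 7 carriers of iron, copper and magnesium, 4 fell (57.1%): the iron carrier SLC11A2 and the SLC41 magnesium carriers SLC41A1, SLC41A2 and SLC41A3. SLC11A2 (DMT1), which imports iron, fell by 0.43 with 2125, 1493 and 1499 reads. SLC40A1 (ferroportin), which exports it, had 1748, 1470 and 1720 reads and a change of -0.06, with column ratios of -0.23 and 0.11 on either side of the control. The copper importer SLC31A1 changed by -0.20 without passing. The heme carrier SLC48A1, on no list, fell by 0.47.

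Nucleoside and folate carriers fell in 5 of 7 genes (71.4%), SLC19A1, the reduced folate carrier, by 0.76 and SLC29A1 (ENT1), a nucleoside carrier, by 0.34. Nucleotide sugar carriers of the Golgi and endoplasmic reticulum fell in 13 of 17 (76.5%). SLC35A2 (UDP-galactose) fell by 0.68 and SLC35A4 by 0.63, whereas SLC35A1 (CMP-sialic acid) had 810, 780 and 692 reads and a change of -0.06. SLC35E2B and SLC35E2 are near-identical copies. The authors' alignment kept only reads with a single position in the genome, so reads fitting both copies were not counted. The changes of SLC35E2B and SLC35E2, -0.82 and -0.67, rest on the remaining reads and are uncertain. The same holds for SLC7A5P2, a partial copy of SLC7A5, with 987, 769 and 747 reads and 383 per kb.

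Ion and pH carriers fell in 8 of 14 genes (57.1%). SLC24A1, a sodium/calcium-potassium exchanger, had 307 reads in control and 148 and 116 in dIWS1, a change of -1.14 ± 0.15. SLC9A8, a sodium/proton exchanger, fell by 0.83 and SLC4A2, an anion exchanger, by 0.54. SLC12A2 (NKCC1) changed by -0.21 without passing. The phosphate carriers SLC20A2 and SLC20A1, receptors for retroviruses, had changes of -0.54, called, and -0.29, not called. SLC4A7, a sodium bicarbonate cotransporter, had 1751, 1801 and 1527 reads, with columns on either side of the control, and lay 0.42 above the median gene (adjusted p = 0.044). SLC9A2, on no list, fell by 0.82 and was lower relative to the median gene.

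Lipid, choline and acetyl-CoA carriers fell in 7 of 8 genes (87.5%, against 65.0% of all genes), and 0 of them were called relative to the median gene. SLC44A2 and SLC44A1, carriers of choline, fell by 0.67 and 0.51, SLC33A1, the acetyl-CoA carrier of the endoplasmic reticulum, by 0.57 and SLC10A7 by 0.55. SLC10A3 had 84, 86 and 65 reads, columns on either side of the control. In the organic cation and carnitine family, the neighbours SLC22A4 and SLC22A5 on chromosome 5 fell by 0.66 and 0.56, and SLC22A23, with 13041 reads the most of any member in control, by 0.71.

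The members highest relative to the median gene were SLC18B1, a polyamine carrier of vesicles, and SLC35G1. SLC18B1 had 796, 820 and 839 reads and SLC35G1 had 392, 426 and 388. Scaled, all dIWS1 values lay a little above the control, with changes of 0.14 ± 0.13 and 0.13 ± 0.13 that did not pass. Relative to the median gene they were 0.56 and 0.56 higher (adjusted p = 0.000967 and 0.00132).

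The promoters of members at either end of the changes are printed to show how much they differ in CG content. Each is the 250 bases before the RefSeq gene start (GRCh38.p14), 5′ to 3′ on the strand of the gene, with CG dinucleotides in capitals. SLC24A1 (chr15:65611100-65611349, plus strand) and SLC38A10 (chr17:81295308-81295557, minus strand) were among the lowest, and SLC35G1 (chr10:93893728-93893977, plus strand) and SLC18B1 (chr6:132798638-132798887, minus strand) the highest.
SLC24A1: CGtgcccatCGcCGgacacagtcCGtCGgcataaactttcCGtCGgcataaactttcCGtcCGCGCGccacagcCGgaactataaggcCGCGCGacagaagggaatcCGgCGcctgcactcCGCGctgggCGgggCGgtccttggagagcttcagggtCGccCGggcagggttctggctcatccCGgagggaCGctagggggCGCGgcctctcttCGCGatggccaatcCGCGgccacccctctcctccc
SLC38A10: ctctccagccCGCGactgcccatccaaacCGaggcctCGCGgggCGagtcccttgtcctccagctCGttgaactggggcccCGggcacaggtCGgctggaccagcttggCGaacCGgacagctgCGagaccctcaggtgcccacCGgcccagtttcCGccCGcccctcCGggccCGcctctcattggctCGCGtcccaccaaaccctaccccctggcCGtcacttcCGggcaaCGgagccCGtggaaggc
SLC35G1: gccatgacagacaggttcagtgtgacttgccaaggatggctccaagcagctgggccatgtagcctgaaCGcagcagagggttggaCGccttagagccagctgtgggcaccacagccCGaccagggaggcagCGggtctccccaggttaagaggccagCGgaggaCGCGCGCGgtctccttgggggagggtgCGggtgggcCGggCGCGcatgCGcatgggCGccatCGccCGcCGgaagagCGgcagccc
SLC18B1: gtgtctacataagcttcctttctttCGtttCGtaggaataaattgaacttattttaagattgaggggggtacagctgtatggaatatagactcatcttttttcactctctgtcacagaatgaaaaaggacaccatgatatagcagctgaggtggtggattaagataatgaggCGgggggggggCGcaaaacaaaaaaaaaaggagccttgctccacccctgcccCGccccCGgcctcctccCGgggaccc
These stretches held 31, 23, 19 and 7 CG dinucleotides. The median was 21 over the 129 members with a promoter sequence at hand, 21 over all tested genes with one and 11 over all 27305 promoters of the table. Across the 129 members the rank correlation of CG count with log2 change was 0.10, a description over genes that share their libraries. The E-box CACGTG, searched on either strand, was in 17 of the 129 member promoters (13.2%), in 9.33% of the 7920 promoters of tested genes and in 6.49% of all promoters. The TATA box TATAAA was in 8 (6.20%), 5.16% and 11.1% of the same sets. Neither motif occurred in the printed stretches.

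Carriers with names outside the SLC rule and proteins that serve carriers were counted apart from the members. Of 33 such genes listed, 24 were measured, 14 fell (58.3%, against 65.0% of all genes) and 0 rose, with a median of -0.41. TIMM10, a chaperone that guides carriers to the inner membrane, fell by 0.81, MFSD2B, which exports sphingosine-1-phosphate from red cells, by 0.76, MFSD5 by 0.75, MFSD10 by 0.73 and SLCO4A1 by 0.62. The mitochondrial pyruvate carrier subunits MPC1 and MPC2 had 535, 548 and 451 reads and 627, 583 and 597 reads, with columns on either side of the control in each.

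Gene length and neighbours were features the name rule did not use. In length classes cut at the quartiles of all genes tested (11.1, 27.9 and 64.2 kb), the SLC25 medians from short to long were -0.64, -0.27, -0.35 and -0.47 with 8 of 10, 1 of 7, 7 of 11 and 2 of 3 genes called. Over all genes tested the same classes had medians of -0.47, -0.39, -0.34 and -0.49, with 63.7%, 62.8%, 56.5% and 77.0% called lower. In the other families they were -0.51, -0.46, -0.41 and -0.48. The short SLC25 genes thus lay lowest of these classes, with a median of 210.5 control reads per gene against 2108 for those between 27.9 and 64.2 kb.

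Members were also split by the distance to the listed gene before them on the same strand, a comparison without a test. For 37 members the nearest listed upstream gene ended within 20 kb, and their median was -0.55 (-0.56 and -0.53 in the columns) with 31 called (83.8%). For the 124 farther off it was -0.44 (-0.48 and -0.38) with 80 called (64.5%). All genes tested had -0.48 within 20 kb with 73.6% called lower, and -0.40 farther off with 62.6%. In SLC25 the medians were -0.65 for 9 genes and -0.30 for 22, and in the other families -0.48 for 28 and -0.45 for 102. The near and far SLC25 genes also differed in length, with median spans of 7807 and 36299.5 bases, so length and distance cannot be told apart in so few genes. SLC25A5 itself starts 13966 bases behind SLC25A43 on the X chromosome, and these mitochondrial carriers changed by -0.66 and -0.55.

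**Figure D4:**
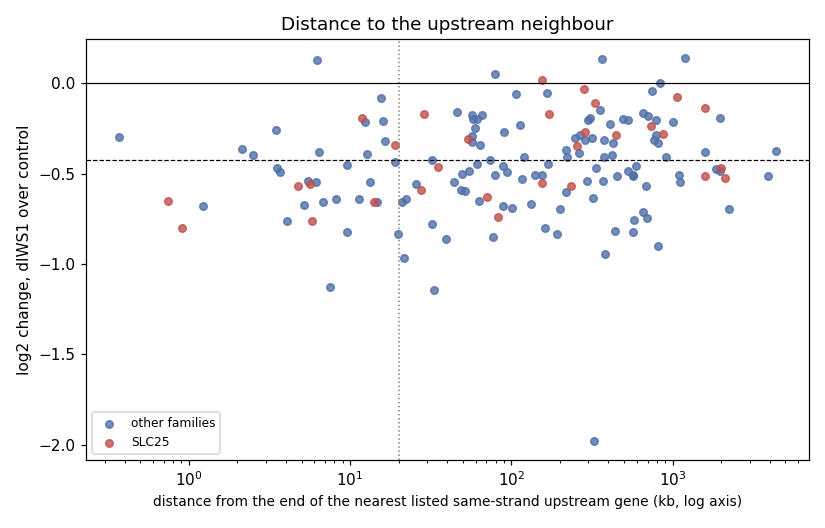
Log2 change (y) of solute carrier genes against the distance from the end of the nearest listed gene upstream on the same strand (x, kb, log axis). SLC25 genes are in red and other families in blue. SLC25A2, which lies within 20 kb and has a lower change than every gene drawn, is left out, as are members without such a neighbour. Left of the dotted line at 20 kb the 8 SLC25 genes drawn reach from -0.80 to -0.19, and the dashed line is the median of all genes tested.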

How the data were processed

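TT-seq libraries were made by the authors, aligned with STAR 2.6.0 to GRCh38 with spike-in sequences and counted per RefSeq gene by strand. The authors removed overlapping genes and those with a median of 10 or fewer reads per kb, and ran DESeq2 with spike-in size factors. Levels per kb given here are scaled control reads over the RefSeq gene span. That is a different measure, and some members lie under 10 on it. The deposited signal used here is the mean over libraries of counts divided by size factors. The remaining columns of the authors' table hold their comparison (log2 fold change, its error, a test score, p-values and adjusted p-values). They were used for no result, and the fold change only to learn which column is the control.

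Whole reads were recovered from that mean: 10129 of 10136 genes above 0 had 1 solution (all 162 members), matched to 15 significant digits, and 7 were left out. In an unrestricted search 4 members had another solution outside the range of the columns. In simulations all of 1200 genes were split correctly, but the simulated depths stopped short of the deepest members. limma 3.58.1 (R 4.3.3) voom with spike-in library sizes was fitted to genes with at least 10 reads. On simulated reads of 8861 genes in the dIWS1 against control layout it called 169 of 200 changed genes and 12 unchanged ones. The called changed genes were 99 of those changed by 1 log2 unit and 70 of those changed by 0.5. In the data the fit called 65.0% of 10000 genes lower, and a layout with that share of genes changed was not tested. The lone control is assumed to vary like the dIWS1 columns, and p-values measure only the spread between these columns. Column ratios used a pseudocount of 0.5. Depth ran from 10 to 13041 control reads per member. Standard errors ran from 0.13 to 0.47, with the largest in thinly read members. They did not keep falling with depth, as in 2 genes outside the members: 0.13 for MPC1 with 535 control reads and 0.15 for FLVCR1 with 3383.

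RefSeq GRCh38.p14 coordinates (159 members by symbol, 3 by synonym) were used with strands from GENCODE 44. Members, lists and tests were chosen with earlier results of these data known. Named were SLC25 members, genes of the role lists, the 5 lowest and 5 highest changes with at least 100 control reads and the 5 highest levels per kb in either set. Some of these are not reported here. SLC48A1, SLC6A19, SLC9A2, SLC35E2, SLC22A4, SLC22A5, SLC22A23 and the pairs by position were named after their values were seen. Alternatives were total-read scaling, recentring, filters, thresholds, pseudocounts, limma-trend, the control column entered 2 times and leaving out a dIWS1 column.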

Additional observations from a re-analysis of the deposited data

How the results depend on the processing

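With total reads for scaling, 23 members were called lower (3 in SLC25 and 20 in other families) and 35 higher, 54 differed from the median gene, and the SLC25 and other medians were -0.020 and -0.015. Recentred on the median gene the medians were -0.040 and -0.033. At a change of at least 0.5, 71 were lower (57 in other families). Genes off the median gene numbered 12 in the fit reported, 6 at an adjusted p under 0.01, 6 at a change of at least 0.5, 6 with limma-trend and 51 with the control column entered 2 times, which also called 1 member higher. The difference of medians was 0.052 with at least 100 reads over the columns and 0.052 over members with at least 100 control reads, an alternative chosen after seeing the data. Leaving out a dIWS1 column gave medians from -0.49 to -0.36 for SLC25 and from -0.51 to -0.40 for others, a difference from 0.012 to 0.047, and no test. The cause was not tested. Without the 5 symbols that name no carrier, also chosen later, 108 were lower.

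Among named genes called under either scaling, these log2 changes turned positive with total reads: SLC25A25 0.10, SLC25A20 0.10, SLC25A24 0.20, SLC25A51 0.25, SLC25A33 0.27, SLC25A36 0.30, SLC25A40 0.33, SLC25A32 0.37, SLC25A14 0.41, SLC16A1 0.40, SLC38A2 0.26, SLC7A5P2 0.14, SLC2A1 0.11, SLC3A2 0.17, SLC38A9 0.034, SLC2A3 0.23, SLC39A7 0.069, SLC40A1 0.38, SLC11A2 0.015, SLC31A1 0.24, SLC29A1 0.10, SLC35A1 0.38 and SLC12A2 0.24. A further 7 named genes, called under neither, turned positive too. Relative to the median gene, those called before or after recentring that turned positive were SLC25A25 (0.079), SLC25A20 (0.079), SLC25A14 (0.39), SLC7A5P2 (0.12), SLC2A1 (0.094), SLC38A9 (0.017), SLC39A7 (0.053) and SLC29A1 (0.083), and a further 21 called in neither case did so. Total reads shifted the median gene by 0.44, and recentring subtracts its change of -0.42. No paired analysis was possible because the columns carry no replicate numbers and only 1 distinct control column was found.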
